A study of Mus musculus with 4 samples.

Results

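The nuclear-encoded subunits of the respiratory chain were taken from the deposited gene tables by symbol. Genes named Ndufa, Ndufb, Ndufc, Ndufs or Ndufv with a number, Sdha to Sdhd, and those whose symbol begins with Uqcr, Cox4 to Cox8 or Atp5 were included, and 8 symbols marked as pseudogenes by "-ps" were left out. The rule gave 89 of the 54532 genes in the tables: 40 of complex I, 4 of complex II, 8 of complex III, 19 of complex IV and 18 of complex V. They carried 88 distinct symbols, since Atp5o stood for 2 gene entries. RNA was from PMN-MDSC (polymorphonuclear myeloid-derived suppressor cells, which resemble neutrophils and are known for restraining T cells), purified from the spleen of newborn C57BL/6 mice. The cells were kept for 5 days with NECA, an agonist of adenosine receptors, or with its solvent DMSO, with 2 libraries in each group. Separate animals or treatments for the 2 libraries are not stated in the labels, so that a p-value covers only the spread among these libraries, which may be technical. In bulk RNA, fewer cells of a type and less RNA per cell cannot be told apart.

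The respiratory chain passes electrons from NADH (complex I) and succinate (complex II) through coenzyme Q, complex III and cytochrome c to oxygen at complex IV. Complexes I, III and IV pump protons across the inner mitochondrial membrane, and complex V, the ATP synthase, uses the gradient to make ATP. All subunits of complex II and most of those of the other complexes are encoded in the nucleus, while a few hydrophobic core subunits are encoded in mitochondrial DNA. Mature neutrophils are known for few mitochondria and a reliance on glycolysis, and immature cells of the lineage for more mitochondrial respiration.

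Depth was 15864120 to 18712625 counts per library. To check the cell type label, 12 neutrophil markers were summed, giving 113460 and 118360 CPM (counts scaled to a common library size, here by the TMM method) under DMSO, against 125408 and 126629 CPM under NECA. Of these 12, 2 were higher (Mmp8 and Mmp9, edgeR, adjusted p under 0.05, but 0 with library size alone as the scale). For 9 of them both NECA libraries lay above both DMSO libraries, against 22.4% of all genes tested, and for 1 both lay below, against 24.3%. Their log2 fold changes, NECA over DMSO, ran from -1.19 to 0.23, with 2 of the 12 below 0. Markers of other cell types were at far lower sums, and most of the sums were lower under NECA. The macrophage markers summed to 693 and 609 CPM under DMSO, against 331 and 266 CPM under NECA, 10 of 12 of them being lower by the same test. In that test 0.978% of all genes were called lower, 1.33% were called in either direction, and 15.7% had an unadjusted p under 0.05. The B cell markers summed to 128 and 135 CPM against 70.9 and 12.7 CPM, with 1 of 8 lower (Blnk), and those of basophils, mast cells and eosinophils to 59.1 and 53.7 CPM against 38.2 and 33.7 CPM, with 1 of 7 lower (Ccr3). The erythroid markers summed to 1180 and 485 CPM against 339.9 and 19.4 CPM, with 0 of 9 past the threshold in edgeR and all 9 at an unadjusted p under 0.05. For T and NK cells the sums were 29.1 and 30.2 CPM against 17.9 and 18.9 CPM, with 0 of 6 past the threshold and 5 at an unadjusted p under 0.05. None of the 2 tested dendritic cell and 4 tested platelet markers was called, or had an unadjusted p under 0.05. All tested macrophage, B cell, erythroid, T and NK cell markers had both NECA libraries below both DMSO libraries. Leaving out NECA replicate 1 gave 6 neutrophil markers called higher and 1 lower, and 8 B cell, 8 erythroid, 3 basophil and 2 T and NK cell markers lower. Leaving out NECA replicate 2 gave 4 and 1, and 7, 6, 3 and 1, and leaving out either DMSO replicate gave 0 in each of these last 4 sets. Of the neutrophil markers, 0 were then higher and 1 lower without DMSO replicate 1, and 2 higher without DMSO replicate 2. The macrophage count was 10 or 11 with any library left out, and limma on the FPKM values called 0 markers of every set. The part of these cells in the values below was not tested.

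The promoters of the subunit genes are shown first, because many respiratory chain genes are known targets of nuclear respiratory factor 1 (NRF1), of ETS-family factors such as GABP, and of YY1. RefSeq windows (GRCm38.p6, 250 bases before to 50 bases after the start site) were found for 66 of the 88 symbols, in 71 windows. Exact matches were searched on both strands. The NRF1-type letters GCGCATGC were in 14.08% of the members' windows and in 2.71% of all 32851 windows. The ETS-type letters CCGGAAG were in 22.54% and 8.86%, and the YY1-type letters AAGATGGC in 12.68% and 2.75%. At least 1 of these motifs was in 29 of the 71 windows (40.85%), against 13.3% of all windows. A match is a description of the letters and not a bound site. For each complex, the window with the most of these motifs is given (ties by number of matches, then by level), from 180 bases before to 20 bases after the start, in the direction of the gene and with the matches in capitals. A run of 10 capitals holds 2 overlapping NRF1-type matches, 1 on each strand.
Ndufa11: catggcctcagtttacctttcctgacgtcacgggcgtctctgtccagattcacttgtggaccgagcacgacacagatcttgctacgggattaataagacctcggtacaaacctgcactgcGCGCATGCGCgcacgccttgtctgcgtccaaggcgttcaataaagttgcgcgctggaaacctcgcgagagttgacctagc
Sdhb: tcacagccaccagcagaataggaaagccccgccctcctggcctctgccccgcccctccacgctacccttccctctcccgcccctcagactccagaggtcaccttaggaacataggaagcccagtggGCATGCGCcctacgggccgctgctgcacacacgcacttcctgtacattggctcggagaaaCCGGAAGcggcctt
Uqcr11: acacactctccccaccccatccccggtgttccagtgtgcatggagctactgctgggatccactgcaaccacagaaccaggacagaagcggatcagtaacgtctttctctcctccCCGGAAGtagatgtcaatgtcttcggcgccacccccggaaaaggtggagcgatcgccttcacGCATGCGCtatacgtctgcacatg
Cox6a1: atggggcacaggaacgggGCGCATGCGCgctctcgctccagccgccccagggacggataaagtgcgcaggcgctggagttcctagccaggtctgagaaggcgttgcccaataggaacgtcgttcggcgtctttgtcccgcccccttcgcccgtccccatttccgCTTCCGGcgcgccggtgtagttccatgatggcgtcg
Atp5k: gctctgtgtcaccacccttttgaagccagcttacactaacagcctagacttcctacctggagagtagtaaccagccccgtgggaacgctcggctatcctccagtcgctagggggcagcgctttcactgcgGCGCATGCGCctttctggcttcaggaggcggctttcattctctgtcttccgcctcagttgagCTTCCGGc

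The Ndufa11 window (chr17:56717582-56717781, plus strand) held the NRF1-type letters from -60 and, overlapping on the other strand, from -58, with positions counted from the start site as +1. In Sdhb (chr4:140961091-140961290, plus strand) an NRF1-type match began at -54 and an ETS-type match at +7. In Uqcr11 (chr10:80406802-80407001, minus strand) the ETS-type match came first, at -66, and the NRF1-type match at -4. The window of Cox6a1 (chr5:115348939-115349138, minus strand) held NRF1-type letters at -162 and -160 and ETS-type letters at -16. In Atp5k (chr5:108434380-108434579, minus strand) NRF1-type letters began at -50 and -48 and ETS-type letters at +13. None of these 5 genes passed the threshold described next, and their log2 fold changes were -0.055 (Ndufa11), 0.041 (Sdhb), 0.27 (Uqcr11), -0.034 (Cox6a1) and -0.041 (Atp5k).

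No nuclear-encoded subunit was called higher or lower after NECA. Of the 89 genes, 80 passed the filter on low counts, and 0 of the 80 reached an adjusted p under 0.05 (edgeR's quasi-likelihood test, Benjamini-Hochberg over 13083 genes), against 1.33% of all genes tested. At that share, a set of 80 genes would hold few calls or none. At an unadjusted p under 0.05 stood 2 of the 80 (2.5%), Cox6a2 and Cox7a2l, against 15.7% of all genes. DESeq2 and limma on the FPKM values also called 0 members. Limma called only 1 of the 13083 genes with either pseudocount, so its 0 says little about the members. In DESeq2, 0 members had an unadjusted p under 0.05, against 1297 of the 13083 genes (3 members had no adjusted p there). In limma with pseudocounts of 1 and 0.1 these were 9 and 8 members, against 1918 and 1861 genes. The median log2 fold change, NECA over DMSO, was -0.015 for the members and -0.0065 for all genes tested. With library size alone as the scale, these medians were -0.087 and -0.079. Both NECA libraries lay above both DMSO libraries for 13 members (16.25%), against 22.4% of all genes, and below them for 15 (18.75%), against 24.3%. The groups overlapped for the other 52 members (65%), against 53.3% of all genes.

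A p-value that misses the threshold does not show that levels were equal, so the 95% intervals of the differences are given. For 65 of the 80 members the interval lay within 0.5 on the log2 scale on either side of 0, and for 74 within 1. Among members with a mean of at least 5 CPM, a level chosen after the values were seen, the interval lay within 0.5 for 65 of 74 (87.8%), against 73.1% of the 8560 genes at that level, and within 1 for all 74. The 6 tested members under 5 CPM (Ndufa12, Ndufb2, Ndufb4c, Cox6a2, Cox7a1 and Atp5s) had no interval within 1. In simulated data of this depth and spread 38% of 1.3-fold changes, 68% of 1.5-fold changes and 92% of 2-fold changes were recovered. The changes were put into randomly drawn genes at 5 CPM or more, 50 for each size. These rates therefore do not cover the members under 5 CPM.

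**Figure D1:**
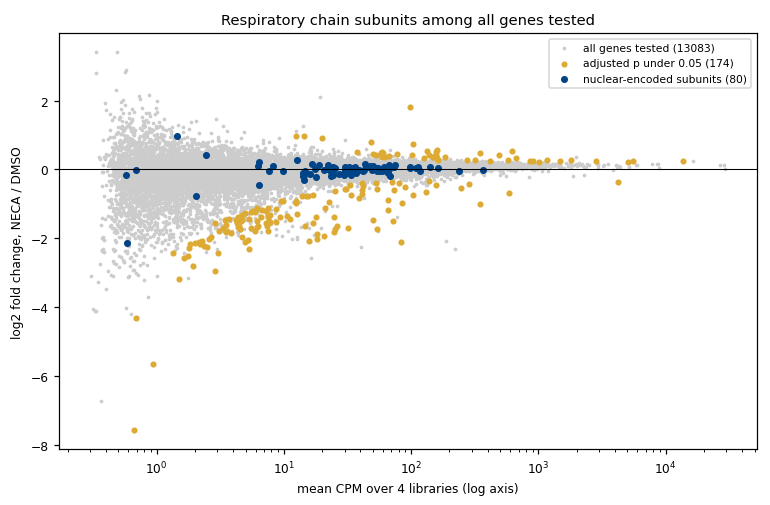
Log2 fold change (NECA over DMSO) against the mean CPM over the 4 libraries (log axis) for the 13083 genes tested, with the 174 genes past the threshold in yellow and the 80 subunit genes in blue. The subunit genes at 5 CPM or more lie between -0.45 and 0.27, and none is among the genes past the threshold.

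The difference between groups was set beside that between libraries of the same group. For the 74 members at 5 CPM or more the median absolute log2 difference was 0.13 between the DMSO libraries, 0.076 between the NECA libraries and 0.062 between the groups. For all genes at that level the same medians were 0.1, 0.099 and 0.1. The difference between groups is between means of 2 libraries. Without any effect it would tend to be smaller than a difference between single libraries, so the sizes are not like for like. DMSO replicate 1 was the lowest library for 28 of the 74 members and DMSO replicate 2 the highest for 34. Among all genes at that level DMSO replicate 1 was lowest in 27.5% and DMSO replicate 2 highest in 24.2%, against 37.8% and 45.9% of the members.

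Summed over the 89 genes, the level was 3594 and 3809 CPM under DMSO, against 3738 and 3656 CPM under NECA, a ratio of the group means of 0.999. Complex V held the largest part, with 1330.5 and 1387 CPM under DMSO, against 1378 and 1333 CPM under NECA. The members of complex I summed to 985 and 1065 CPM against 1020.0 and 1015 CPM, and those of complex IV to 679 and 745 CPM against 715 and 714 CPM. For these 3 complexes both NECA libraries lay between the DMSO libraries. Complex III summed to 340.2 and 351 CPM under DMSO, against 355 and 333 CPM under NECA. Complex II summed to 259 and 261 CPM under DMSO, against 269.9 and 261 CPM under NECA. The groups overlapped for all 5 complexes.

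**Figure D2:**
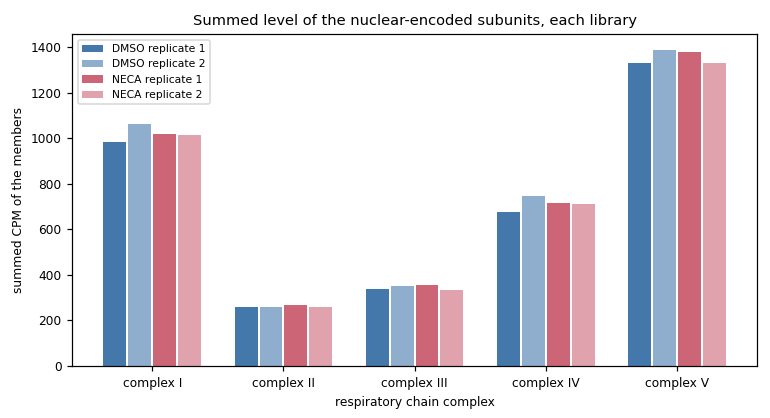
Summed CPM of the nuclear-encoded members of each complex, 1 bar for each library (DMSO blue, NECA red; replicate 2 paler). Within each complex the 4 bars are of nearly the same height, with ratios of the group means from 0.993 (complex I) to 1.02 (complex II).

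Levels of different genes were compared per length, with the deposited FPKM (fragments divided by the length of the gene and a scale for the library). That scale did not follow the total count alone. Relative to DMSO replicate 1 it was 0.947 for NECA replicate 1 and 0.804 for NECA replicate 2, against totals of 1.007 and 0.854. The highest mean FPKM were those of 3 complex IV subunits, Cox8a (180), Cox6a1 (166) and Cox4i1 (90.5), followed by the catalytic core of complex V, Atp5b (86.5) and Atp5a1 (75.4). Cox8a had 162 and 189.6 FPKM under DMSO, against 186 and 181 FPKM under NECA, so that the groups overlapped. The order of Cox8a and Cox6a1 was within the spread between libraries, since Cox6a1 had 158 and 178 FPKM under DMSO, against 163 and 166 FPKM under NECA. The median over the tested members was 35.0 FPKM for complex IV, 26.5 for complex III, 25.7 for complex II, 21.4 for complex V and 16.5 for complex I. The length used bears on this order, because the FPKM divides by all exon bases of a gene, a median of 1.66 times the shortest principal transcript and 12.4 times in Ndufb2. Per kilobase of that transcript the highest were Cox6a1 (205 CPM per kilobase), Atp5b (191), Cox4i1 (188) and Cox8a (178), and complex V had the highest median (83.8) before complex IV (63.5).

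In complex I, which oxidises NADH and reduces coenzyme Q, 0 of 37 tested members were called, 15 lay above 0 and 22 below, and the median log2 fold change was -0.014. The members were split by their place in the enzyme, a grouping made by hand after the values were seen. Values in parentheses are the log2 fold change and its 95% interval. The 10 genes of the NADH-binding arm had a median of -0.025. Among them Ndufs1, an iron-sulfur core subunit, had 51.4 and 59.1 CPM under DMSO, against 53.4 and 53.4 CPM under NECA (log2 fold change -0.049, 95% interval -0.24 to 0.14). Ndufv1, which holds the NADH site, had 34.3 and 31.3 CPM against 31.9 and 33.1 CPM. Both NECA libraries lay within the range of the DMSO libraries for each of these core subunits. Ndufa2, an accessory subunit, was the only one of the 10 with the groups apart, at 28.3 and 28.6 CPM against 26.0 and 25.5 CPM (-0.14, -0.37 to 0.08).

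Ndufs3, Ndufs7, Ndufs8 and Ndufa5 belong to the quinone-binding part. For each of these 4 genes both NECA libraries lay below both DMSO libraries, as they did for 24.3% of all genes, and none passed the threshold. Ndufs3 (chr2:90894634-90904827, minus strand, GRCm38), a core subunit, had 15.5 and 16.5 CPM under DMSO, against 13.7 and 12.1 CPM under NECA (log2 fold change -0.31, 95% interval -0.64 to 0.02, edgeR adjusted p = 0.359). Ndufa5 (chr6:24518666-24528013, minus strand), an accessory subunit, had 6.58 and 8.02 CPM against 5.22 and 5.49 CPM (-0.45, -0.93 to 0.04, edgeR adjusted p = 0.366). The values of Ndufs7, which holds the last iron-sulfur cluster, were 30.1 and 33.8 CPM against 29.7 and 29.5 CPM, with -0.11 on the log2 scale. Ndufs8, another iron-sulfur subunit, stood at 26.3 and 24.7 CPM against 22.7 and 23.2 CPM, with -0.15. Each of the 4 stayed below 0 and uncalled under every alternative run. Some schemes also place Ndufa6, Ndufa7 and Ndufa9 here, of which Ndufa9 had both NECA libraries above both DMSO libraries (17.1 and 18.6 CPM against 19.1 and 20.3 CPM) and the other two overlapped.

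In the membrane arm of complex I, which carries the proton pumps, the proximal members had a median log2 fold change of 0.022 and the distal ones of 0.030, with 10 tested members each. Both NECA libraries lay above both DMSO libraries for 4 of the proximal members (with Ndufa9 counted here) and 3 of the distal members, against 22.4% of all genes. They lay below for 0 of the proximal and 2 of the distal members, against 24.3% of all genes. Ndufa8, of the proximal arm, had 51.0 and 45.5 CPM under DMSO, against 51.3 and 51.7 CPM under NECA (0.093, -0.09 to 0.28). Ndufb11, of the distal arm and the complex I member with the highest FPKM, had 54.9 and 64.6 CPM against 64.7 and 61.1 CPM. Distal members lay on both sides, with Ndufb10 at 34.4 and 35.5 CPM against 37.8 and 36.1 CPM (0.082) and Ndufb9 at 14.3 and 16.0 CPM against 13.1 and 13.3 CPM (-0.2, -0.53 to 0.13). The widest intervals belonged to genes with few counts. Ndufa12 had 10 and 27 counts under DMSO and 21 and 42 under NECA (0.97, -0.31 to 2.25), 0.24 when summed with a near-identical gene copy, and 0.24 to 1.87 with a library left out, lowest without NECA replicate 2 and highest without DMSO replicate 2. Ndufa4, named for complex I and since assigned to complex IV, had 28.4 and 33.0 CPM against 28.9 and 28.4 CPM.

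Complex II, succinate dehydrogenase, also belongs to the citric acid cycle. Of its 4 members 0 were called, and all 4 intervals lay within 0.5 of 0. Sdha, the flavoprotein that oxidises succinate, had 114 and 109 CPM under DMSO, against 117 and 114 CPM under NECA (0.058, -0.08 to 0.2, edgeR adjusted p = 0.748). Both NECA libraries lay above both DMSO libraries, but the nearest libraries of the groups were both at 114 CPM. The iron-sulfur subunit Sdhb had 50.1 and 55.4 CPM against 55.1 and 53.4 CPM. The membrane anchors Sdhc and Sdhd had 32.4 and 32.1 CPM against 34.8 and 28.0 CPM, and 62.7 and 65.1 CPM against 62.6 and 64.8 CPM.

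**Figure D3:**
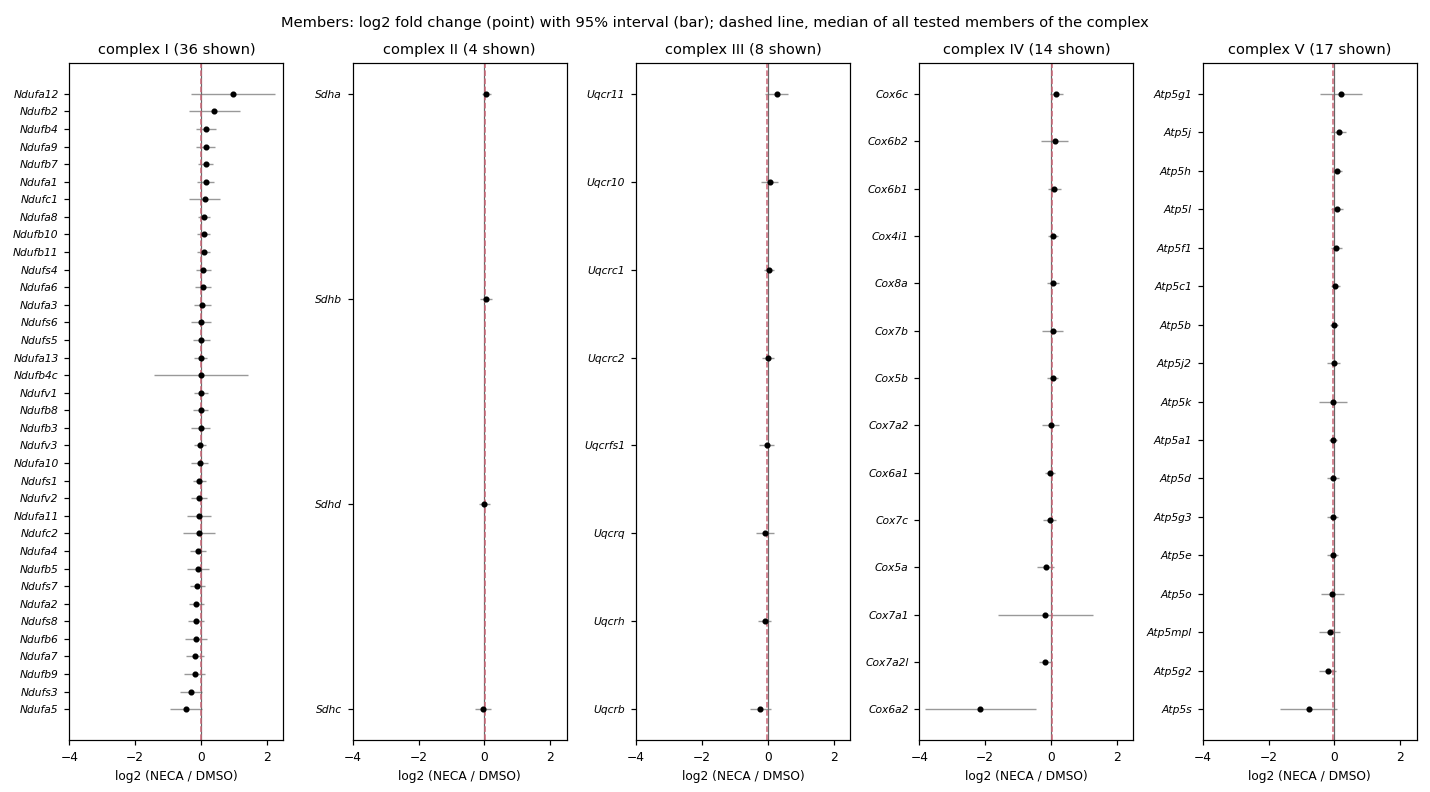
Log2 fold change (NECA over DMSO) of the tested members (all but 1), 1 panel for each complex, with the 95% interval as a bar and the median over all tested members of the complex as a dashed line. Most points lie close to 0 with short bars, and the widest bars are those of Cox6a2, Ndufb4c, Cox7a1, Ndufa12 and Atp5s, which have few counts.

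Complex III passes electrons from reduced coenzyme Q to cytochrome c. Of its 8 members 0 were called, 4 lay above 0 and 4 below, with a median of -0.011. The core subunit Uqcrc1 had 112 and 104 CPM under DMSO, against 112 and 111 CPM under NECA (0.044, -0.1 to 0.19). The Rieske iron-sulfur protein Uqcrfs1 had 41.4 and 45.4 CPM against 46.5 and 38.4 CPM. The lowest and highest log2 fold changes were in small subunits. Uqcrb had 19.9 and 18.8 CPM against 18.2 and 14.8 CPM (-0.23, -0.54 to 0.09, edgeR adjusted p = 0.508), with both NECA libraries below. Uqcr11 had 10.8 and 12.3 CPM against 14.8 and 12.9 CPM (0.27, -0.09 to 0.63, edgeR adjusted p = 0.485), with both NECA libraries above. Uqcrh, an acidic hinge protein, and Uqcr10 overlapped between the groups, with -0.093 and 0.058.

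Complex IV, cytochrome c oxidase, reduces oxygen. Its 10 general, widely expressed members had a median log2 fold change of 0.049, with a range of -0.16 to 0.15 and all intervals within 0.5 of 0. Cox4i1 had 133 and 142 CPM under DMSO, against 149 and 137 CPM under NECA (0.059, -0.09 to 0.21). Cox5a had 32.1 and 39.5 CPM against 30.4 and 33.5 CPM, and Cox5b 51.6 and 55.8 CPM against 55.0 and 55.8 CPM. Cox6c, the highest of the complex at 0.15 on the log2 scale, had 39.1 and 42.7 CPM against 43.5 and 47.5 CPM, with both NECA libraries above (edgeR adjusted p = 0.463).

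The smallest p-values of all members belonged to 2 genes of complex IV. Cox6a2 (chr7:128205435-128206387, minus strand, GRCm38), the heart and muscle form of subunit 6a, had 11 and 25 counts under DMSO and 3 and 4 under NECA (log2 fold change -2.15, 95% interval -3.83 to -0.46, edgeR adjusted p = 0.195). The counts were low and the groups did not overlap. Without DMSO replicate 2, the library with most Cox6a2 counts, the log2 fold change was -1.43, and without NECA replicate 1 it was -1.85. Over the 4 refits with a library left out it ran from -2.62 to -1.43. With all libraries in DESeq2 the unadjusted p of Cox6a2 was 0.064, with no adjusted p. Of its exon bases, 70 (10.3%) are shared with Itgad, a gene on the other strand that had 26.9 and 24.0 CPM under DMSO, against 8.95 and 8.14 CPM under NECA (-1.57, edgeR adjusted p = 0.000344). The use of strand in the counting is not given in the sources used here, and the part of Itgad reads in the Cox6a2 counts was not tested. Cox7a2l (chr17:83501918-83517330, minus strand) had 77.5 and 69.0 CPM under DMSO, against 65.8 and 63.0 CPM under NECA (-0.19, -0.36 to -0.01, edgeR adjusted p = 0.287). The log2 fold change of Cox7a2l was -0.095 without DMSO replicate 1, the library in which it was highest.

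Several complex IV subunits exist in a general form and in forms restricted to muscle, lung or testis, and in these cells the general form prevailed. Cox4i1 gave 99.8% to 100% of the Cox4 FPKM, with Cox4i2 at 3, 0, 0 and 1 counts. Cox6a1 gave 99.5% and 98.9% of the Cox6a FPKM under DMSO and 99.9% and 99.8% under NECA. Cox8b had 2 counts in 1 library, and Cox7b2 and Cox8c had 0 counts in all 4, which allows up to 0.157 to 0.194 CPM per library (3 counts, for counting error only). An exception was Cox6b2, known as the testis form, with 10.6% and 9.3% of the Cox6b FPKM under DMSO and 9.63% and 10.4% under NECA. Per length of the principal transcript its share over the 4 libraries was 18.7%. Its level was 7.84 and 7.86 CPM under DMSO, against 8.24 and 8.72 CPM under NECA (0.11, -0.31 to 0.53). Cox7a1, the muscle form of subunit 7a, had 14, 9, 9 and 9 counts, or 0.91% to 1.32% of the FPKM of Cox7a1, Cox7a2 and Cox7a2l together. Ndufa4l2, the paralogue of Ndufa4 induced by low oxygen, had 1 count in NECA replicate 1 and 0 in the other 3 libraries.

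**Figure D4:**
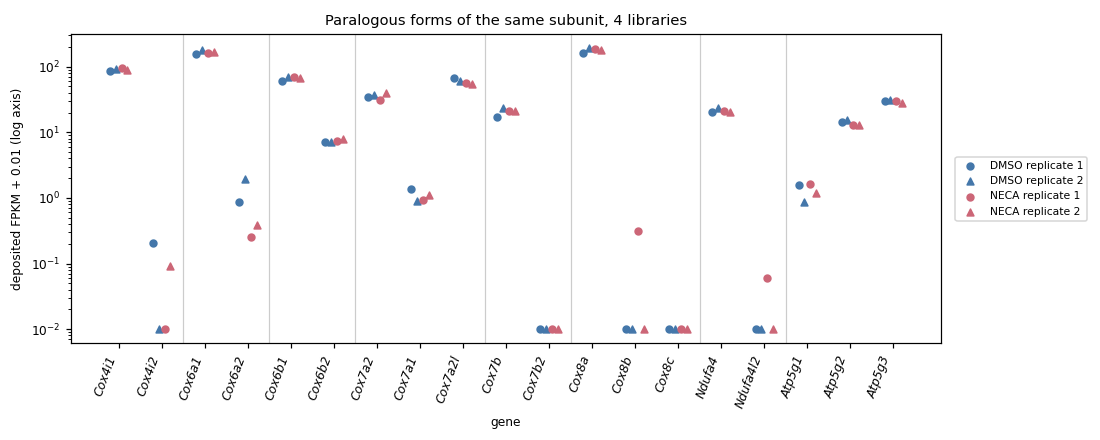
Deposited FPKM plus 0.01 (log axis) of paralogous forms of the same subunit, DMSO in blue and NECA in red, with 1 symbol for each replicate. Cox4i1, Cox6a1, Cox7b, Cox8a and Ndufa4 lie far above their restricted forms in every library, while Cox6b2 and the 3 c ring genes Atp5g1, Atp5g2 and Atp5g3 lie closer to each other.

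Complex V makes ATP in its F1 head, driven by the rotation of a ring of c subunits in the membrane. Of its 17 tested members 0 were called, 6 lay above 0 and 11 below, with a median of -0.041. The 5 head genes had log2 fold changes of -0.058 to 0.030, with all 5 intervals within 0.25 of 0. Atp5b, the catalytic beta subunit, had 369 and 367 CPM under DMSO, against 372 and 359 CPM under NECA (-0.010, -0.12 to 0.1). Atp5a1 had 237 and 244 CPM against 238 and 228 CPM, and Atp5c1, the rotating shaft, 98.8 and 94.6 CPM against 100.2 and 97.2 CPM. Of the stalk genes, which hold the head still, Atp5j had 56.1 and 71.5 CPM against 68.2 and 71.9 CPM, with DMSO replicate 1 apart from the other 3 libraries. Atp5f1, the long stalk subunit, had its lowest level in the same library, with 148 and 173 CPM against 169.9 and 163 CPM (0.053, -0.11 to 0.22). Atp5h of the same stalk had 70.4 and 72.7 CPM against 76.7 and 74.1 CPM (0.076), with both NECA libraries above. Atp5e, in the head, had 60.0 and 56.7 CPM against 56.2 and 55.9 CPM (-0.058), with both NECA libraries below.

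The c subunit is encoded by 3 genes that give the same mature protein. Atp5g3 gave 65.0% and 65.1% of their FPKM under DMSO and 67.2% and 66.6% under NECA, Atp5g2 31.5% and 33.1% against 29.1% and 30.7%, and Atp5g1 the remaining 1.8% to 3.64%. Per length of the principal transcript the shares over the 4 libraries were 58.6%, 34.4% and 6.97%. Atp5g2 had 24.0 and 26.3 CPM under DMSO, against 21.9 and 21.8 CPM under NECA (-0.2, -0.45 to 0.05, edgeR adjusted p = 0.442), with both NECA libraries below. Atp5g1 had 149 and 79 counts against 146 and 89, and its near-identical gene copy Gm10039 had 113 and 199 counts against 75 and 67. Pdzd2, a separate gene that shares a near-identical stretch of 111 bases, had 19 and 45 counts against 25 and 7. The log2 fold change of Atp5g1 was 0.20 alone and -0.40 when summed with all counts of both genes, neither past the threshold. Atp5s, a coupling factor with few counts, had 57 and 41 counts under DMSO and 23 and 27 under NECA (-0.78, -1.65 to 0.08, edgeR adjusted p = 0.374).

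The 9 members that did not pass the filter were Ndufa11b, Ndufa4l2, Ndufs6b, Cox4i2, Cox6c2, Cox7b2, Cox8b, Cox8c and the other Atp5o entry. None had more than 6 counts in a library, and Ndufa11b, Ndufs6b and Cox6c2 are annotated as processed pseudogenes, as is Ndufb4c among those tested. The other Atp5o entry was listed at 0, and all its exon bases are shared with the first Atp5o entry or with Donson. Counts are uncertain where reads can belong to more than 1 gene: 30 members share exon bases with another annotated gene, and 17 have a near-identical stretch in a gene elsewhere in the genome (at least 98% identity over at least 100 bases), which can be a copy or a separate gene. Summing members with all counts of those genes gave 0 called members as well.

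Nor was any of the other nuclear genes of the pathway called by edgeR, against 1.33% of all genes tested. At that share, lists of this size would hold few calls or none. None of the 13 tested complex I assembly factors, 9 of complexes II and III, 20 of complex IV and 5 of complex V was called, with 2 at an unadjusted p under 0.05, both of complex IV assembly. These were Cox18 and Cox10, which insert a subunit into the membrane and make heme. Cox18 had 4.49 and 4.46 CPM under DMSO, against 2.25 and 2.97 CPM under NECA (-0.78, edgeR adjusted p = 0.22), and Cox10 5.59 and 5.31 CPM against 3.46 and 3.62 CPM (-0.62, edgeR adjusted p = 0.254). Of 13 coenzyme Q synthesis genes, 16 genes of the citric acid cycle and 5 subunit genes outside the symbol rule (Ndufab1, Cyc1, Ndufb1-ps, Atpif1 and Cycs), 0 were called and 0 had an unadjusted p under 0.05. The medians were -0.22 for complex I assembly, -0.2 for coenzyme Q synthesis, -0.063 for the citric acid cycle and 0.026 for the further subunits. Log2 fold changes were below 0 for 10 of 13 assembly genes of complex I, 5 of 9 of complexes II and III, 14 of 20 of complex IV and 3 of 5 of complex V. The same held for 10 of 13 coenzyme Q, 13 of 16 citric acid cycle and 1 of 5 further subunit genes, against 6720 of all 13083 genes. With a library left out, the counts below 0 ran from 7 to 11 for complex I assembly and 5 to 7 for complexes II and III. They ran from 8 to 16 for complex IV and 2 to 3 for complex V assembly. For coenzyme Q, citric acid cycle and further subunit genes they ran from 10 to 11, 10 to 13 and 1 to 3. Of 13 tested regulators of mitochondrial biogenesis 0 were called and 1 had an unadjusted p under 0.05, Pprc1, a coactivator of nuclear respiratory factors, with 2.46 and 4.30 CPM against 1.10 and 1.62 CPM (-1.32, edgeR adjusted p = 0.133). Under the alternatives run, the 1 call in these lists was that of Pprc1 without the low-count filter.

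Transcripts of the subunits encoded in mitochondrial DNA, by contrast, included genes past the threshold. Of 11 tested, 4 were lower (edgeR, adjusted p under 0.05), against 0.978% of all genes tested, and all 11 log2 fold changes were below 0, with a median of -0.41. mt-Nd1, a membrane subunit of complex I, had 152 and 169 CPM under DMSO, against 110.1 and 95.1 CPM under NECA (-0.65, -0.83 to -0.47, edgeR adjusted p = 0.00303). mt-Cytb, the core of complex III, had 316 and 343 CPM against 253 and 235 CPM (-0.43, edgeR adjusted p = 0.00661). mt-Nd2 had 64.0 and 66.0 CPM against 47.2 and 39.7 CPM (-0.58, edgeR adjusted p = 0.0115), and mt-Nd6 45.7 and 48.2 CPM against 35.9 and 34.8 CPM (-0.41, edgeR adjusted p = 0.0455). Only mt-Nd1 kept its call when each library was left out in turn. Without DMSO replicate 2 the adjusted p of mt-Cytb was 0.0578, that of mt-Nd2 0.0643 and that of mt-Nd6 0.197, and without DMSO replicate 1 that of mt-Nd2 was 0.0533 and that of mt-Nd6 0.114. Leaving out NECA replicate 2 gave 0.0899 for mt-Nd6. In all, 2 of these genes were called when DMSO replicate 1 was left out, 1 when DMSO replicate 2 was, 7 when NECA replicate 1 was and 5 when NECA replicate 2 was, and limma on the FPKM values called 0. DESeq2 called 6, library size alone and the fit without the low-count filter 7 each, and RLE scaling 3.

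The levels of the nuclear-encoded members were set against these transcripts within each library. For complex I the ratio of summed nuclear to summed mitochondrial-genome CPM was 1.70 and 1.69 under DMSO and 2.17 and 2.37 under NECA, and for complex III 1.08 and 1.02 against 1.40 and 1.42. For complex III the mitochondrial value is that of mt-Cytb alone. For complex IV the ratio was 0.357 and 0.358 against 0.416 and 0.401. It rests almost wholly on mt-Co1, the catalytic subunit, which had 1890 and 2071 CPM against 1710.2 and 1772 CPM and did not pass the threshold (-0.19, edgeR adjusted p = 0.0891), while mt-Co2 and mt-Co3 were at 1.87 to 6.22 CPM. Complex V is left out, since its mitochondrial transcripts were at under 4 CPM. Near-identical stretches elsewhere in the genome were searched for the nuclear-encoded members only. How the assignment of shared reads bears on the mitochondrial values, and so on these ratios, was not tested. In all 3 complexes both NECA libraries lay above both DMSO libraries, while the nuclear sums overlapped. The difference between these sets of genes was not tested. In the same libraries the summed macrophage, B cell, T and NK cell, erythroid and basophil, mast cell and eosinophil markers given above were lower and the summed neutrophil markers higher, and their part in the mitochondrial transcripts was not tested.

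**Figure D5:**
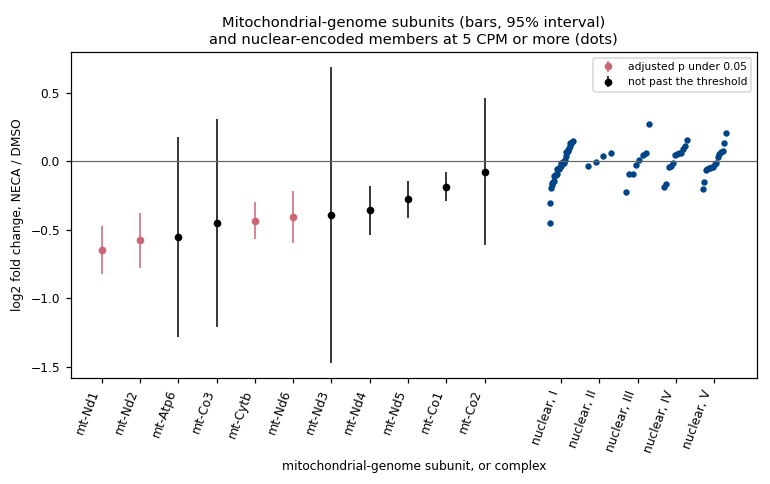
Log2 fold change (NECA over DMSO) of the 11 tested subunits encoded in mitochondrial DNA, with 95% intervals, and of the nuclear-encoded members at 5 CPM or more by complex (dots, without intervals). The 11 mitochondrial values lie below 0, with 4 past the threshold in red, while the nuclear values lie on both sides of 0.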

How the data were processed

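RNA of 4 libraries was sequenced. Each table as deposited holds 1 count column (whole numbers) and 1 FPKM column, per the file headers. The submitters' processing notes name HISAT, StringTie and edgeR, and mm10 and GRCm38 as builds. Neither the counter nor a strand setting is given in the sources used here. The deposited FPKM equalled the authors' count over a gene length and a library scale, and that length was within 1% of the GENCODE M21 exon union for 9450 of 9890 genes checked.

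Counts were tested as deposited in R 4.3.3 with edgeR 4.0.16: filterByExpr (minimum count 10), TMM, glmQLFit and glmQLFTest, with Benjamini-Hochberg adjustment over all 13083 genes tested and a threshold of 0.05. Intervals (95%) come from the log2 fold change and its standard error, taken as the fold change over the square root of F. Only 2 residual degrees of freedom were left. The code was tested on simulated data, in which 12 of 161 calls were genes simulated without change. Alternatives were DESeq2 1.42.0, limma 3.58.1 on log2(FPKM + 1) and log2(FPKM + 0.1), other scalings, no low-count filter, a replicate block, each library left out, and genes with near-identical stretches (BLAST+ 2.17.0) added.

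The members and gene lists were chosen with earlier results of these data known. Members were named when they were core subunits, listed isoforms, or in their complex had one of the 3 smallest p-values, the 2 highest FPKM or the highest or lowest fold change. The values of 1 member are not reported here, though counts and medians over all members include it. Others named in the text, the grouping within complexes, the promoter windows and the counts of called genes of the pathway and marker lists under each alternative were chosen after seeing the data. The replicates were not copies of each other (chi-square per degree of freedom 6.36 for DMSO and 5.01 for NECA).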

Additional observations from a re-analysis of the deposited data

How the results depend on the processing

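The number of members called was 0 higher and 0 lower under every alternative run, with a smallest adjusted p of 0.143 (Cox7a2l, with library size alone as the scale). Depth and 2 libraries per group limit this to changes of the size given by the intervals. Over all genes, 46 were higher and 128 lower; with library size alone these counts were 21 and 217, without the low-count filter 285 and 590, in DESeq2 151 and 134, and in limma 1 and 0 with either pseudocount (1918 and 1861 genes at an unadjusted p under 0.05). Leaving out each library in turn gave 8 to 227 higher and 45 to 594 lower, both lowest without DMSO replicate 1 and highest without NECA replicate 1. The cause of these shifts was not tested.

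With the replicate number as a block, 123 genes were higher and 298 lower, no member was called, and 7 in place of 4 mitochondrial-genome subunits were lower. Same-numbered libraries did not deviate together (correlation of deviations 0.0211), and the labels do not say that the numbers pair them.

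Scaling by library size alone moved the median of all genes to -0.079, and the medians of complex I to -0.086, II to -0.054, IV to -0.058, V to -0.11 and of all members to -0.087. Leaving out a library gave medians of -0.086 to 0.037 for complex I, -0.024 to 0.069 for II, -0.072 to 0.071 for III, -0.058 to 0.080 for IV, -0.060 to -0.0019 for V and -0.050 to 0.034 for all members.

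No called member changed sign, since none was called. Among the named members the sign of the log2 fold change changed in 39 of 478 refits, with a median size of 0.028. With library size alone it became -0.043 for Atp5c1, -0.013 for Cox4i1, -0.028 for Cox5b, -0.018 for Cox7b, -0.015 for Cox8a, -0.015 for Sdha, -0.031 for Sdhb, -0.014 for Uqcr10 and -0.029 for Uqcrc1. Summed with genes holding near-identical stretches it became -0.40 for Atp5g1 and -0.0037 for Cox5b, and Sdhd moved to 0.0033 in DESeq2 and to 0.0037 and 0.0038 in limma. With a library left out, the values ran from -0.036 to 0.015 for Atp5b, -0.17 to 0.72 for Atp5g1, -0.026 to 0.32 for Atp5j, -0.0054 to 0.11 for Cox5b, -0.11 to 0.055 for Cox6a1, -0.0024 to 0.20 for Cox6b1, -0.44 to 0.17 for Cox7a1, -0.20 to 0.15 for Cox7a2, -0.16 to 0.31 for Cox7b, -0.049 to 0.18 for Cox8a, -0.20 to 0.018 for Ndufa4, -0.033 to 0.20 for Ndufb11, -0.14 to 0.060 for Ndufs1, -0.075 to 0.061 for Ndufv1, -0.025 to 0.12 for Sdhb, -0.20 to 0.11 for Sdhc, -0.029 to 0.028 for Sdhd, -0.060 to 0.16 for Uqcr10, -0.0072 to 0.11 for Uqcrc1 and -0.18 to 0.099 for Uqcrfs1.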
